A study of Mus musculus with 3 samples.

Results

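The genes described here are the nuclear genes of oxidative phosphorylation, taken as every symbol in the count tables that begins with Nduf followed by a, b, c, s or v, with Uqcr, with Cox and a digit from 4 to 8, or with Atp5, together with Sdha, Sdhb, Sdhc and Sdhd. This rule used names only and found 92 genes among the 19744 in the tables. There were 38 genes of complex I, 7 complex I assembly factors (the Ndufaf genes), 4 genes of complex II, 8 of complex III, 17 of complex IV and 18 of complex V. They were measured by Drop-seq, which tags the mRNA of single cells in droplets at its 3′ end and counts unique molecules, in 3 medulloblastomas of G-Smo mice on a C57BL/6 background. Their genotype is hGFAP-Cre/SmoM2, in which Cre from the human GFAP promoter, active in neural stem cells of the brain, turns on an oncogenic Smo allele. Hedgehog signalling is then always on, and medulloblastomas grow from progenitors of cerebellar granule neurons. All 3 tumours had the same treatment, 5 daily intraperitoneal doses of 25 mg/kg palbociclib in polyoxazoline nanoparticles (POx-palbo) from postnatal day 10, and were harvested on postnatal day 16. Palbociclib inhibits the cell cycle kinases CDK4 and CDK6. All tumours therefore carry the transgene and the drug, untreated tumours are not analysed here, and comparisons are between barcodes (presumed cells) of the same tumours. The labels number the tumours without saying in words that each came from its own animal. A p-value therefore weighs a difference between barcode sets against how it varied over these 3 samples.

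The tables held 8827, 2330 and 9802 barcodes, with 1150463, 248617 and 1324350 counts, in tumours 1, 2 and 3. Median depth was 84 to 105 counts per barcode, every barcode had at least 50 genes, and 1060, 148 and 1059 barcodes reached 200 counts. Mitochondrially encoded transcripts took 3.97%, 11.4% and 5.61% of counts. All 8 progenitor and cycling markers, Atoh1, Gli1, Mycn, Ccnd1, Ccnd2, Barhl1, Mki67 and Top2a, had counts in the barcodes of at least 200 counts of each tumour. Between 3 and 8 barcode sequences were shared by a pair of tumours, and none of these reached 200 counts in both.

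Oxidative phosphorylation makes ATP in the inner mitochondrial membrane. Complex I (NADH dehydrogenase) and complex II (succinate dehydrogenase) pass electrons to ubiquinone, complex III passes them on to cytochrome c, and complex IV (cytochrome c oxidase) passes them to oxygen. Complexes I, III and IV pump protons, and complex V, the ATP synthase, lets the protons flow back to drive ATP synthesis. Mitochondrial DNA encodes some core subunits of complexes I, III, IV and V, while the genes described here are in the nucleus and all of complex II is nuclear. In the complexes that pump protons, conserved core subunits carry out electron transfer and are surrounded by small supernumerary subunits that serve assembly and stability. Proliferating granule neuron progenitors are known for strong aerobic glycolysis, which declines as they differentiate.

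The 92 genes together held 54924 counts, 22105 in tumour 1, 4219 in tumour 2 and 28600 in tumour 3. That was 2.00%, 1.92% and 2.29% of the non-mitochondrial counts of tumours 1, 2 and 3, with a mean of 2.07% ± 0.195 (SD, n = 3). Complex I took 0.854% ± 0.0589, complex IV 0.480% ± 0.0820, complex V 0.462% ± 0.0476, complex III 0.187% ± 0.0166 and complex II 0.0505% ± 0.0103 of non-mitochondrial counts. The complex I assembly factors took 0.0346% ± 0.00480. For scale, cytosolic ribosomal protein genes took 3.17% ± 1.03 of non-mitochondrial counts. Every gene of the 92 had at least 1 count, and 83 had at least 30 over the 3 tumours. Of these 83, 40 had levels whose 95% Poisson intervals did not overlap in at least 1 pair of tumours. Such an interval covers counting error only. Of the same 83, 45 were lowest in tumour 2, the tumour with the fewest counts and the highest mitochondrial share, and 46 were highest in tumour 3. These counts were not made over all genes, and whether they are particular to these genes was not tested. The part that these differences in depth and mitochondrial share play in the levels was not tested.

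**Figure D1:**
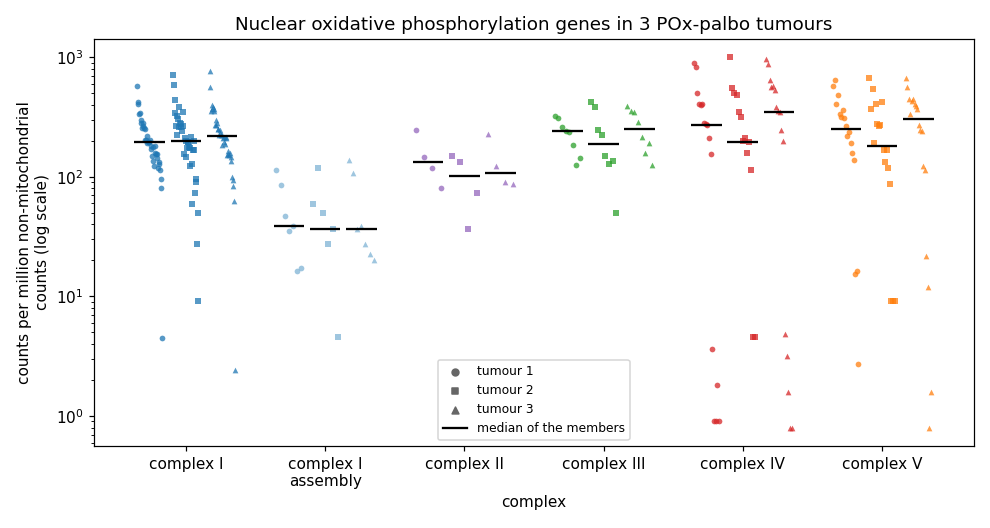
Level of each gene in CPM, counts per 1e6 non-mitochondrial counts (log axis) by complex, with tumours 1, 2 and 3 from left to right within a complex and a bar at the median of all genes of the complex. Genes at 0 in a tumour are not drawn but enter the median. The highest point belongs to Cox6a1, between 885 and 995 CPM, and the points below 10 CPM include the second isoforms of complex IV.

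Levels are given as CPM, counts scaled to a total of 1e6 non-mitochondrial counts, and were not divided by transcript length, because a molecule is counted once at its 3′ end whatever its length. In complex I the highest level was that of Ndufa4, at 573, 708 and 761 CPM in tumours 1, 2 and 3. Ndufa4 is grouped here by its symbol, although its protein is now usually assigned to complex IV. Counted with complex IV, it would move that complex to 0.548% ± 0.0868 and complex I to 0.786% ± 0.0496 of non-mitochondrial counts. The small supernumerary subunits Ndufc1 (522 ± 90.8 CPM) and Ndufa12 (399 ± 44.0 CPM) followed (SD, n = 3). The iron-sulfur core subunit Ndufs1, with the longest coding sequence among the complex I genes, had the lowest level of the complex apart from Ndufa4l2, at 64.6 ± 15.3 CPM.

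In complex II the iron-sulfur subunit Sdhb had 247, 150 and 230 CPM in tumours 1, 2 and 3. The flavoprotein subunit Sdha, which binds succinate, had 147, 132 and 124 CPM. The membrane anchor subunits Sdhc and Sdhd averaged 81.5 ± 41.4 and 80.1 ± 7.28 CPM, and Sdhc was at 36.3 CPM in tumour 2 against 118 and 90.4 CPM in tumours 1 and 3. The 3 highest levels of complex III belonged to the small subunits Uqcr11 (377 ± 51.2 CPM), Uqcrq (349 ± 38.8 CPM) and Uqcrh (285 ± 54.6 CPM), ahead of the larger core protein Uqcrc1 (201 ± 45.4 CPM) and the Rieske iron-sulfur protein Uqcrfs1 (157 ± 29.2 CPM). The means of Uqcr11 and Uqcrq differed by less than their spread over tumours, though Uqcr11 was the higher within each tumour.

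In complex IV, Cox6a1, a regulatory subunit, had the highest level of all 92 genes at 885, 995 and 960 CPM in tumours 1, 2 and 3. Cox4i1, the regulatory subunit that binds ATP, had 823, 550 and 879 CPM, and Cox6c, a small membrane subunit, had 503, 500 and 646 CPM. In complex V the highest were Atp5j, a peripheral stalk subunit, at 572, 672 and 664 CPM, and the catalytic subunit Atp5b at 648, 368 and 558 CPM. Atp5o, the stalk subunit that links head and membrane parts and gives oligomycin sensitivity, followed with 403, 545 and 444 CPM. The alpha subunit Atp5a1 of the catalytic head was at 480, 191 and 334 CPM. Atp5b and Atp5a1 were thus lowest in tumour 2, while the stalk subunits Atp5j and Atp5o were highest there. For Atp5j tumours 2 and 3 were close. The stalk subunits Atp5f1 (310, 272 and 390 CPM) and Atp5h (219, 168 and 273 CPM) were lowest in tumour 2, so the stalk had no common direction.

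Several complex IV subunits exist as pairs of a widespread isoform and an isoform known from muscle, lung or testis. In each such pair the widespread isoform held nearly all counts. Cox4i2, known from lung, had 3 of the 2132 counts of Cox4i1 and Cox4i2, a share of 0.141% (95% exact interval 0.0290 to 0.411%). Cox6a2 and Cox7a1, the heart and skeletal muscle isoforms, had 6 of 2403 and 4 of 1256 counts of their pairs, shares of 0.250% and 0.318%. The testis isoforms Cox6b2 and Cox7b2 had 10 of 1242 and 1 of 772 counts. Cox8b, a heart and muscle isoform, had 1 of 1185 counts, 0.0844% (0.00214 to 0.469%). Counts this low cannot be told apart from misassigned reads. Ndufa4l2, a relative of Ndufa4 induced by hypoxia, had 10 of 1750 counts, 0.571% (0.274 to 1.05%). The c subunits of the ATP synthase ring are made from several genes with the same mature protein, and here both measured genes had counts, with Atp5g3 at 41.8%, 33.9% and 32.1% of the Atp5g1 and Atp5g3 sum in tumours 1, 2 and 3. Processed pseudogenes are common for these short genes, and how the authors' counting split reads between copies is not given. Atp5l-ps1, the one listed by name as a pseudogene, had 2 counts against 356 for Atp5l.

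The promoters of these genes are known as targets of NRF1, a regulator of nuclear genes for respiration, and of ETS family factors such as GABPA. The window from 250 bases before to 50 bases after the RefSeq start (GRCm38.p6) could be matched for 72 of the 92 genes and was searched on both strands, in the same way for every gene of the table. The NRF1 motif, GCGC and TGCGC with any base (N) between them, was in 18 of the 72 (25.0%), against 5.19% of 27025 genes in the promoter table and 14.3% of the 6010 promoters of genes tested in the depth comparison below. In 5 of the 18 its matches lay only after the start. The ETS motif CCGGAAG was in 17 (23.6%), against 9.93% and 23.7%, and in 3 of these only after the start. A YY1 motif, AAGATGGC, was in 9 (12.5%), against 3.19% and 6.54%, and in 8 of the 9 only after the start. The GC box GGGCGG was in 31 (43.1%), against 38.2% of the table and 72.2% of tested genes. By complex the NRF1 motif was in 7 of 33 promoters of complex I, 2 of 3 of complex II, 1 of 5 of complex III, 1 of 13 of complex IV and 5 of 12 of complex V. A match is a string of letters and not a bound site. For Cox6a1, Sdha and Atp5e the 250 bases before the start are printed here 5′ to 3′ on the gene's strand. They were picked by their values in these data. Neither Cox6a1 nor Sdha reached an adjusted p under 0.05 in the main fit of the depth comparison below. Capitals mark NRF1 and ETS matches, GC box matches are not marked, and none of these genes had a YY1 match. Cox6a1 is shown as the gene with most counts (chr5:115348959-115349208, minus strand), with NRF1 matches from position -162 and position -117 and an ETS match from -16, counted from the start. Sdha is shown for the highest ratio between deep and shallow barcodes (chr13:74350241-74350490, minus strand), with NRF1 matches from -98, -55 and -10. Atp5e is shown for the lowest such ratio (chr2:174464102-174464351, minus strand), with an ETS match from -102 and no NRF1 match. Other genes called lower in deep barcodes, such as Atp5k, Ndufa5 and Ndufa11, had NRF1 matches before the start. A relation between motifs and the depth ratio was not tested.
Cox6a1: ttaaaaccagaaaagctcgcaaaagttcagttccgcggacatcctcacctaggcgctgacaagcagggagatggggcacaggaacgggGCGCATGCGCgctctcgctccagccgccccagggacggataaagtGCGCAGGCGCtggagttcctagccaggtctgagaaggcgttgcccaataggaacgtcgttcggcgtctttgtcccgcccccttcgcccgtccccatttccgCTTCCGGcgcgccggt
Sdha: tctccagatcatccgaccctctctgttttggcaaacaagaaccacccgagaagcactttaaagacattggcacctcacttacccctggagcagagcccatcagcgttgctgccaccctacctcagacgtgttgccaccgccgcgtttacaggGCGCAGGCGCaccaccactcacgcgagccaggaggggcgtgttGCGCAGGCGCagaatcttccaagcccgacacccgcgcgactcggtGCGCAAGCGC
Atp5e: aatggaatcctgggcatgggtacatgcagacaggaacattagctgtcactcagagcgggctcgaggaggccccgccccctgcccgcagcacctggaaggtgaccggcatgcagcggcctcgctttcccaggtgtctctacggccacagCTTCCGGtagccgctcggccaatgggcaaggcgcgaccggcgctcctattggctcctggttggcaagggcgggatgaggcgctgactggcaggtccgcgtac

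The first comparison was between deep barcodes, of at least 200 counts, and shallow barcodes, of 50 to 99 counts. In deep barcodes 41 of the 79 members with at least 30 counts were lower and 0 were higher than in shallow barcodes of the same tumours, at an adjusted p under 0.05 in edgeR's quasi-likelihood test with the tumour as a block. Over all 8177 genes tested, 7.68% were lower and 4.37% were higher, so that 12.0% passed in either direction. At an unadjusted p under 0.05 there were 54 of the 79 members, against 26.2% of all genes. The members' median log2 fold change was -0.89, and that of all genes tested was 0.00. Summed over the 92 genes, deep barcodes had 1.58% ± 0.162 and shallow barcodes 2.41% ± 0.269 of non-mitochondrial counts (SD, n = 3), a mean ratio of 0.654. The log2 ratio was -0.86, -0.42 and -0.56 in tumours 1, 2 and 3, and so below 0 in each. The deep sets held 1060, 148 and 1059 barcodes and the shallow sets 5887, 1542 and 4276.

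The lower genes were mostly the small supernumerary subunits. In complex I, 21 of 37 tested genes were lower in deep barcodes. Of its 29 supernumerary subunits 19 passed, against 1 of 7 core subunits, the iron-sulfur protein Ndufv2. The remaining call was Ndufa4. Ndufa6 had 97.7, 146 and 145 CPM in the deep barcodes of tumours 1, 2 and 3, against 323, 412 and 285 CPM in their shallow barcodes. Its groups did not overlap, and its log2 fold change was -1.43 (SE 0.28, adjusted p = 5.93e-05 by edgeR). Ndufa13, a membrane arm subunit also known as GRIM-19, had 143, 97.1 and 222 CPM in deep barcodes, against 372, 412 and 457 CPM in shallow barcodes, again without overlap (log2 fold change -1.37, SE 0.27). Ndufc1 had 209, 461 and 297 CPM in deep barcodes, against 591, 642 and 739 CPM in shallow barcodes (log2 fold change -1.27, SE 0.26).

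The other complex I genes called lower were Ndufa1, Ndufa2, Ndufa3, Ndufa5, Ndufa7, Ndufa11, Ndufa12, Ndufab1, Ndufb2, Ndufb5, Ndufb6, Ndufb7, Ndufb10, Ndufc2, Ndufs6 and Ndufv3. Their log2 fold changes lay between -1.32 (Ndufa2) and -0.88 (Ndufb10). Ndufab1 is the mitochondrial acyl carrier protein, and Ndufs6 and Ndufv3 are accessory subunits in spite of their letters. The core subunit Ndufs1 went the other way without passing, with 116, 24.3 and 107 CPM in deep barcodes, against 67.4, 57.5 and 45.4 CPM in shallow barcodes (log2 fold change 0.76, SE 0.37, adjusted p = 0.174 by edgeR). It was higher in tumours 1 and 3 and lower in tumour 2, so its groups overlapped. No complex I assembly factor passed, and the 5 tested ran from -0.74 (Ndufaf2) to 0.60 (Ndufaf7) on the log2 scale.

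**Figure D2:**
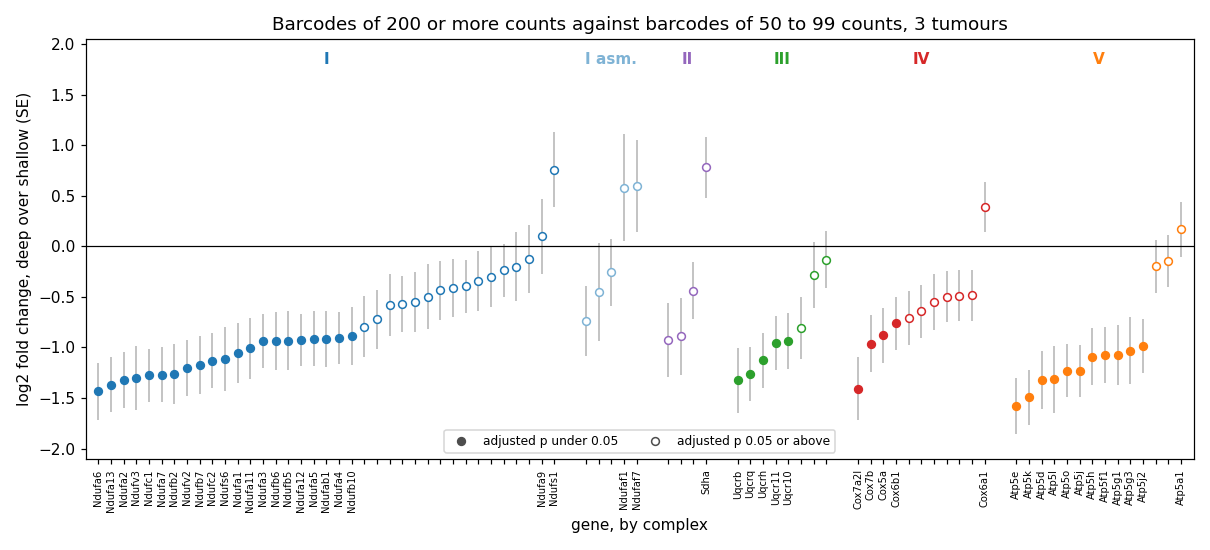
Log2 fold change of each tested gene between deep barcodes (200 or more counts) and shallow barcodes (50 to 99 counts), with its standard error, ordered within complexes, with names for the genes that passed or lay above 0. Filled points, 41 in all and each below 0, passed an adjusted p of 0.05, and open points did not, among them Sdha, Ndufs1 and Cox6a1 above 0.

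Complex III showed the same split by size. All 5 small subunits, Uqcrb, Uqcrq, Uqcrh, Uqcr10 and Uqcr11, were lower in deep barcodes, with log2 fold changes from -1.33 (Uqcrb) to -0.94 (Uqcr10). Of the core proteins Uqcrc1 and Uqcrc2 and the Rieske protein Uqcrfs1, 0 of 3 passed in edgeR and 1 had an unadjusted p under 0.05. Uqcrfs1 had a log2 fold change of -0.81 and passed in some other settings, among them each gene counted once per barcode. Uqcrc1 had 220, 121 and 220 CPM in deep barcodes, against 263, 105 and 212 CPM in shallow barcodes, and the groups overlapped. Uqcrq had 150, 340 and 206 CPM in deep barcodes, against 465, 498 and 433 CPM in shallow barcodes, without overlap (log2 fold change -1.26, SE 0.27).

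In complex V, 11 of 14 tested genes were lower in deep barcodes. All 7 subunits of the peripheral stalk and membrane part passed, Atp5f1, Atp5h, Atp5j, Atp5j2, Atp5k, Atp5l and Atp5o, as did both c ring genes, Atp5g1 and Atp5g3. In the catalytic head and central stalk only the 2 small subunits passed, Atp5d (delta) and Atp5e (epsilon), and 3 larger ones did not. Atp5e had 139, 170 and 209 CPM in deep barcodes, against 446, 316 and 612 CPM in shallow barcodes. The groups did not overlap, and the log2 fold change of -1.58 (SE 0.28, adjusted p = 6.64e-06 by edgeR) was the lowest of the 79. Atp5k, the e subunit of the membrane part, had 134, 267 and 177 CPM in deep barcodes, against 395, 536 and 494 CPM in shallow barcodes (log2 fold change -1.49, SE 0.27).

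The large catalytic subunits of complex V were near 0. Atp5b had 573, 340 and 579 CPM in deep barcodes, against 702, 345 and 530 CPM in shallow barcodes (log2 fold change -0.14, SE 0.26). Atp5a1 had 482, 146 and 396 CPM in deep barcodes, against 479, 153 and 270 CPM in shallow barcodes (log2 fold change 0.17, SE 0.27). Neither passed, and the groups overlapped for each.

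In complex IV, 4 of 11 tested genes were lower in deep barcodes. They were Cox5a (log2 fold change -0.88), a subunit of the matrix side, Cox6b1 (-0.76), a subunit of the intermembrane side, Cox7b (-0.96), and Cox7a2l (-1.41), which is known to link complexes III and IV into supercomplexes. Cox6a1 did not follow them. It had 1046, 1093 and 1168 CPM in deep barcodes, against 756, 833 and 806 CPM in shallow barcodes. Each deep value lay above each shallow value, yet the log2 fold change of 0.39 (SE 0.25) did not pass over all genes (adjusted p = 0.312 by edgeR). Under 16 other settings its fold change ranged from 0.11 to 0.50 and its adjusted p from 0.0833 to 0.936. Cox4i1, Cox5b, Cox6c, Cox7a2, Cox7c and Cox8a, with log2 fold changes from -0.71 (Cox5b) to -0.49 (Cox7a2), did not pass either. Cox6c had 400, 510 and 493 CPM in deep barcodes, against 607, 469 and 706 CPM in shallow barcodes (adjusted p = 0.201 by edgeR).

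None of the 4 complex II genes passed in edgeR, although 3 had an unadjusted p under 0.05. Sdha had 232, 170 and 174 CPM in deep barcodes, against 90.7, 125 and 127 CPM in shallow barcodes. Each deep value lay above each shallow value, with a log2 fold change of 0.78 (SE 0.30, adjusted p = 0.0664). Over 16 other settings its adjusted p ranged from 0.00960 to 0.731 and it passed in 8. Sdhb, Sdhc and Sdhd had log2 fold changes of -0.44, -0.93 and -0.89. The summed share of complex II had log2 ratios of -0.03, 0.00 and -0.37 in tumours 1, 2 and 3.

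The members' changes followed the length of their coding sequence. Among members with coding sequences under 300 bases, 13 of 17 were lower in deep barcodes (76.5%), with a median log2 fold change of -0.96. From 300 to under 600 bases 24 of 40 were lower (60.0%, median -0.93), from 600 to under 1200 bases 3 of 12 (25.0%, median -0.51), and from 1200 to under 2400 bases 1 of 10 (10%, median -0.13). All genes tested, members included, ran the same way. Of these, 47.1% of 153 genes were lower under 300 bases (median -0.94), 28.7% of 906 from 300 (median -0.74), 7.79% of 2117 from 600 (median -0.34) and 0.615% of 2601 from 1200 bases (median 0.17). The medians of the members and of all genes were thus close in the shortest band and lower for the members in the others. Spearman's rho between coding length and log2 fold change was 0.55 over the 79 members and 0.67 over 7417 genes with an annotated length, a description across genes that share their libraries. A coding length was found for 90.7% of all genes tested and for all 79 members tested. Median coding length was 438 bases for the members and 1365 bases for all genes. The part of length in the members' change was not tested. Cox6a1, at 336 bases, was the only member under 600 bases with a log2 fold change above 0.

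**Figure D3:**
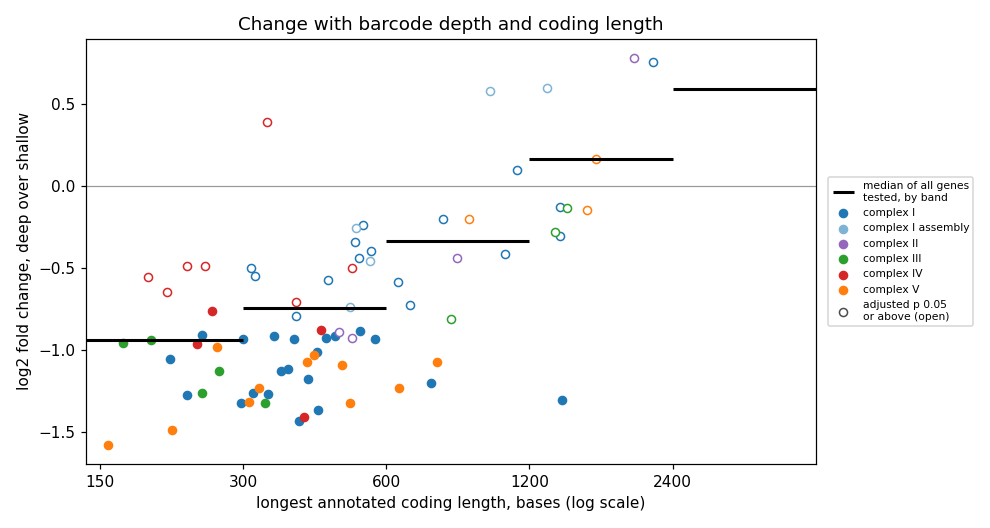
Log2 fold change of the tested members between deep and shallow barcodes against their longest annotated coding length (log axis), filled where the adjusted p was under 0.05, with black bars at the median of all genes tested in each length band. Medians of all genes climb from -0.94 under 300 bases to 0.59 at 2400 bases or more, and most members lie near or below the bar of their band.

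By depth, the largest step in the mean summed share lay between barcodes below and above 200 counts. In barcodes of 50 to 99, of 100 to under 200, of 200 to under 500 and of at least 500 counts, the 92 genes took 2.41% ± 0.269, 2.13% ± 0.335, 1.60% ± 0.143 and 1.57% ± 0.191 of non-mitochondrial counts (SD, n = 3). Complex I had 1.02%, 0.882%, 0.634% and 0.615%, and complex V 0.553%, 0.485%, 0.319% and 0.338%. Complex IV differed less between depths, with 0.527%, 0.485%, 0.421% and 0.406%, and complex II had 0.0532%, 0.0505%, 0.0502% and 0.0456%. Tumour 2 had only 9 barcodes in the deepest set. Cox6a1 ran the other way in tumours 1 and 3, with 756, 822, 1039 and 1052 CPM in tumour 1 and 806, 911, 1133 and 1231 CPM in tumour 3, while tumour 2 had 833, 1166, 1217 and 602 CPM.

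**Figure D4:**
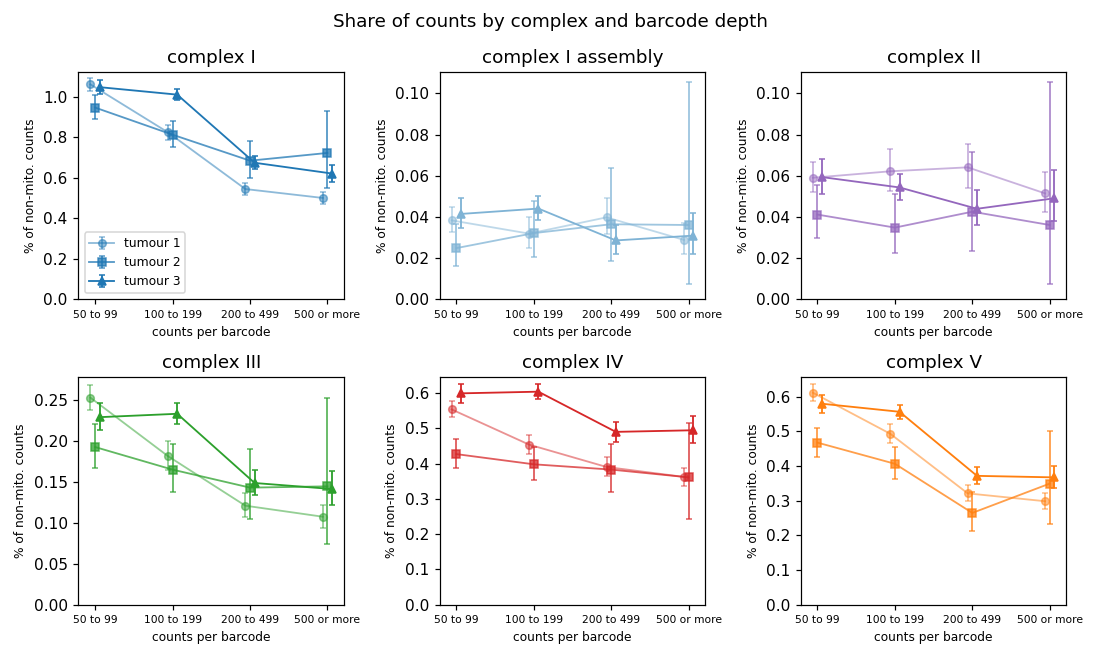
Share of non-mitochondrial counts taken by the genes of each complex in 4 ranges of counts per barcode, from shallow to deep, with 95% exact binomial intervals that cover counting error only. Complexes I, III, IV and V lie lower in barcodes of 200 or more counts than in barcodes of 50 to 99 in each tumour.

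Other features moved with depth. Cytosolic ribosomal protein genes were lower in deep barcodes in 60 of 79 tested, and their summed share had a mean log2 ratio of -1.12. Mitochondrially encoded mRNAs, which include the core subunits made in the organelle, took a larger share of all counts in deep barcodes, with log2 ratios of 2.29, 1.04 and 1.81 in tumours 1, 2 and 3. The nuclear RNA Malat1 took 5.25%, 9.03% and 5.34% of non-mitochondrial counts in deep barcodes, against 1.75%, 6.38% and 3.00% in shallow barcodes. All mitochondrial transcripts, ribosomal RNA included, took 5.64%, 11.1% and 6.30% of all counts in deep barcodes, against 2.26%, 11.5% and 4.82% in shallow barcodes. Erythroid markers were lower in deep barcodes in 4 of 4 tested. Their summed share was 0.0107 to 0.0340% of non-mitochondrial counts in deep barcodes and 0.0579 to 0.115% in shallow barcodes, with Alas2 at 0 in the deep sets of each tumour. Of 8 myeloid markers 2 were higher in deep barcodes. Their summed shares in tumours 1, 2 and 3 were 0.0559%, 0.238% and 0.0817% in deep barcodes, against 0.0630%, 0.0306% and 0.0509%. They were thus lower in deep barcodes of tumour 1. Of 8 progenitor and cycling markers 2 were higher, Gli1 and Mki67. Of 7 astrocyte markers 1 was higher (Sparcl1), and of 3 endothelial and mural markers 1 (Cldn5). Of 8 granule neuron markers Cntn2 was higher and Gap43 lower, and of 5 oligodendrocyte markers Mbp was lower. Without the barcodes that carried marker calls of another cell type, 43 members passed, 42 lower and 1 higher. The part of RNA quality, of free RNA and of cell state in the members' change was not tested.

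Related genes outside the symbol rule moved in part with the members. Of 8 electron carriers and further subunits, 6 were lower in deep barcodes, among them cytochrome c (Cycs, log2 fold change -1.77), the ATP synthase inhibitor Atpif1 (-1.03) and the small ATP synthase subunit Usmg5 (-1.46). Of 75 mitochondrial ribosomal protein genes 22 were lower, and of 23 import genes 5. Of 22 assembly factors 4 were lower, Cox14, Cox17, Cox20 and Uqcc2, where Cox17 is a copper chaperone of complex IV (-1.74). Of 17 TCA cycle and pyruvate dehydrogenase genes 1 was lower, the isocitrate dehydrogenase subunit Idh3a (-1.05). Of 7 tested regulators of mitochondrial biogenesis 0 passed in edgeR and 0 had an unadjusted p under 0.05. No gene of these lists was called higher.

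The number of members called depended on the tumours and the test. Without tumour 1, 7 members were called, without tumour 2, 49 (47 lower and 2 higher), and without tumour 3, 0 (34 at an unadjusted p under 0.05), while the members' median log2 fold change was -0.59, -0.86 and -0.87. With DESeq2 22 passed, all lower, and without the tumour block 6 passed. With each gene counted once per barcode 51 were lower and 1 higher, and with deep barcodes thinned to the depths of shallow ones and again held to 50 genes, 11 were lower with a median of -0.85. These last 2 settings were chosen after seeing the data.

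The second comparison was between barcodes with and without a Neurod1 count, among those of at least 200 counts. Neurod1 encodes a transcription factor of differentiating granule neurons. The detected sets held 330, 51 and 407 barcodes in tumours 1, 2 and 3, and the free sets 730, 97 and 652. Of 78 tested members 0 passed in edgeR, where 1.12% of 5823 genes did, 0.859% higher and 0.258% lower. At an unadjusted p under 0.05 there were 6 members, while 8.69% of all genes reached this level. DESeq2 and limma-voom also called 0 members, with 1 member each at an unadjusted p under 0.05. In the same fit 6 of 7 granule neuron markers were higher in Neurod1-detected barcodes.

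A Neurod1 count is an imperfect label at this depth. It was found in 35.3% of 2176 barcodes with no marker call of another type and in 7 of 35 myeloid-called barcodes (20%, 95% exact interval 8.44 to 36.9%). With 200 counts kept per barcode the shares were 25.1% and 2 of 35 (5.71%). Astrocyte-called barcodes had a Neurod1 count in 8 of 37 (21.6%), and in 4 of 37 (10.8%) with 200 counts kept. The myeloid-called barcodes were deeper, with medians of 455, 465 and 526 counts in tumours 1, 2 and 3, against 345, 250 and 300 counts. No doublets were called or removed. Free RNA and doublets cannot be told apart as a source of these counts, and their part in the members' values was not tested.

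Summed over the 92 genes, Neurod1-detected barcodes had 1.56% ± 0.170 and Neurod1-free barcodes 1.59% ± 0.159 of non-mitochondrial counts. The log2 ratios were -0.04, -0.03 and -0.02 in tumours 1, 2 and 3. Complex IV was lower in the Neurod1-detected barcodes of each tumour, with 0.344%, 0.332% and 0.465%, against 0.392%, 0.415% and 0.510% in Neurod1-free barcodes. Its mean log2 ratio was -0.22 ± 0.10 (SD, n = 3), and it stayed below 0 under 12 other settings, from -0.37 to -0.08. The genes of complex IV did not share this direction. Of 11 tested, 6 had a log2 fold change below 0 and 5 above 0, with a median of -0.01. Complex III was higher in the detected barcodes of each tumour, with 0.120%, 0.152% and 0.160%, against 0.111%, 0.137% and 0.136%. Its mean log2 ratio of 0.16 ± 0.07 came to 0.00 with a minimum of 100 counts per barcode and to -0.05 with a minimum of 300. A sum over chosen genes has no test here. Other gene groups also had ratios below 0 in the same comparison. Mitochondrially encoded mRNAs had log2 ratios of -0.32, -0.16 and -0.23, and cytosolic ribosomal protein genes had log2 ratios of -0.19, -0.10 and -0.16, in tumours 1, 2 and 3. All mitochondrial transcripts took 4.94%, 7.75% and 5.37% of counts in Neurod1-detected barcodes, against 5.98%, 13.5% and 6.93% in Neurod1-free barcodes. Their part in the complex IV values was not tested.

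Among the most counted complex IV genes, Cox6a1 and Cox6c were lower in each tumour, and Cox4i1 was not. Cox6a1 had 837, 730 and 1110 CPM in Neurod1-detected barcodes, against 1148, 1368 and 1208 CPM in Neurod1-free barcodes. It was lower in 3 of 3 tumours without overlap, with a log2 fold change of -0.34 (SE 0.18) that did not pass (adjusted p = 0.580 by edgeR). Cox6c had 346, 450 and 366 CPM in detected barcodes, against 427, 556 and 581 CPM in free barcodes (log2 fold change -0.46, SE 0.22, adjusted p = 0.509 by edgeR). It was lower within each tumour, and the groups overlapped. Cox4i1 had 623, 618 and 653 CPM in detected barcodes, against 633, 470 and 813 CPM in free barcodes, with no common direction.

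The lowest p among the members was that of Ndufb10, a supernumerary subunit of the membrane arm of complex I. It had 208, 225 and 209 CPM in Neurod1-detected barcodes, against 102, 42.8 and 114 CPM in Neurod1-free barcodes. These rest on 30, 4 and 32 counts in detected and 30, 1 and 25 counts in free barcodes. The values did not overlap, with a log2 fold change of 1.04 (SE 0.34, adjusted p = 0.137 by edgeR). Its adjusted p ranged from 0.0377 to 1.00 over the other settings, and it passed in 1, which kept barcodes of 200 to under 500 counts. The other members with an unadjusted p under 0.05 were Uqcrfs1, Ndufa2, Ndufb4, Ndufaf4 and Cox6c, and none kept an adjusted p under 0.05 in any setting.

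The third comparison was between barcodes with and without a count of the proliferation genes Mki67 or Top2a, again at 200 counts or more. The detected sets held 343, 58 and 377 barcodes and the free sets 717, 90 and 682. Of 78 tested members 0 passed in edgeR, where 2.82% of 5822 genes did, 1.91% higher and 0.910% lower. At an unadjusted p under 0.05 there were 3 members, all of complex I and all lower, against 9.93% of all genes. DESeq2 and limma-voom called 0 members, with 0 at an unadjusted p under 0.05. Of 8 granule neuron markers 6 were lower in detected barcodes. Mki67 or Top2a was found in 34.6% of 2176 barcodes with no marker call and in 9 of 35 myeloid-called barcodes (25.7%, 12.5 to 43.3%). With 200 counts kept per barcode the shares were 26.1% and 4 of 35 (11.4%). Astrocyte-called barcodes had such a count in 13 of 37 (35.1%, 20.2 to 52.5%), as often as barcodes with no marker call. With 200 counts kept it was in 6 of 37 (16.2%).

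Ndufa1, a small membrane subunit of complex I, had 35.3, 97.7 and 106 CPM in Mki67- or Top2a-detected barcodes, against 111, 241 and 160 CPM in free barcodes. The groups did not overlap, and the log2 fold change of -1.02 (SE 0.43) did not pass (adjusted p = 0.294 by edgeR). Ndufv3 and Ndufb5 had log2 fold changes of -1.20 and -0.89 and were lower in 2 of 3 tumours. Cox6a1 had 1236, 1124 and 1161 CPM in detected barcodes, against 925, 1062 and 1173 CPM in free barcodes (log2 fold change 0.19, SE 0.15, adjusted p = 0.796 by edgeR). Cox6c, with 418, 391 and 478 CPM in detected barcodes, against 389, 627 and 504 CPM in free barcodes, had no common direction.

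Summed over the 92 genes, Mki67- or Top2a-detected barcodes had 1.59% ± 0.161 and free barcodes 1.56% ± 0.199 of non-mitochondrial counts. The log2 ratios were -0.02, 0.21 and -0.09 in tumours 1, 2 and 3. No complex from I to V had the same direction in all 3 tumours, and complex IV had log2 ratios of 0.14, -0.09 and -0.03. Tumour 2 stood apart with 0.37 for complex I, 0.77 for complex III and -1.25 for complex II, from the smallest sets. Detected barcodes were deeper, with medians of 447, 274 and 359 counts, against 318, 246 and 284 counts in free barcodes.

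**Figure D5:**
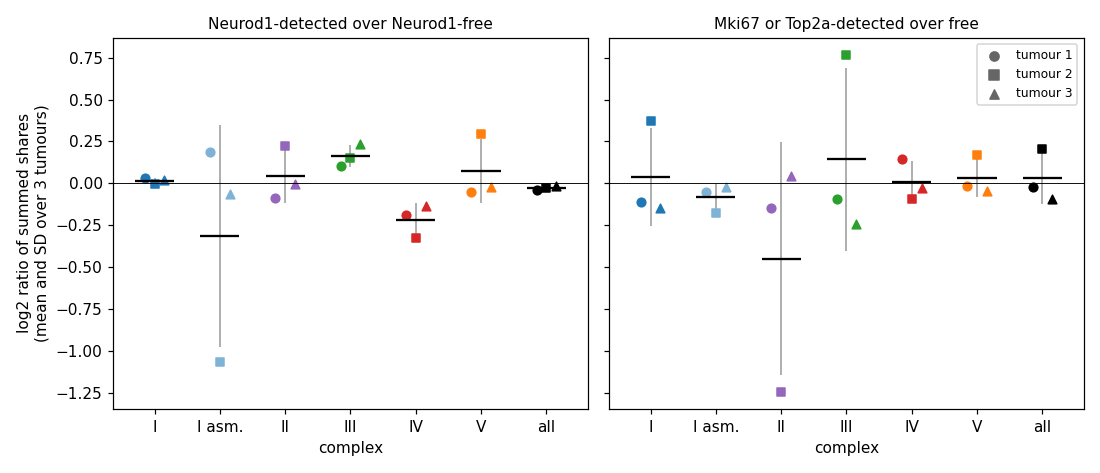
Log2 ratio of the summed share of each complex and of all 92 genes, for Neurod1-detected over Neurod1-free barcodes (left) and Mki67- or Top2a-detected over free barcodes (right). Points are tumours, bars the mean and lines the SD over 3 tumours, and in the left panel complex IV lies below 0 and complex III above 0 in each tumour.

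Single barcodes differed in these genes by somewhat more than chance sampling gives. With 200 non-mitochondrial counts kept per barcode, the 92 genes had on average 2.91, 3.06 and 3.47 counts in 993, 105 and 935 barcodes of tumours 1, 2 and 3. The variance was 1.32, 1.30 and 1.44 times the binomial variance. No count of any of the 92 genes was left in 6.55%, 5.71% and 4.17% of these barcodes. At such depth the share of a single barcode is not a measure of its cell.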

How the data were processed

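The authors deposited tables of counts of unique molecules per gene and barcode, 1 table for each of 3 tumours, with no normalisation recorded. Per the labels' protocols, cells were dissociated with papain and libraries made by Drop-seq. The tools listed per the submitters' processing notes are Cell Ranger and STAR, without versions, beside the build GRCh38. Of 19744 symbols, 18566 (94.0%) matched mouse names, among them 90 of the 92 genes described, so no coordinates were taken with the files. Every column of the tables was used. Promoter sequences and their coordinates are RefSeq's, in GRCm38.p6.

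Genes and lists were chosen with earlier results of these data known. Core and small subunits were listed after values were seen. Counts were summed per tumour and set of barcodes. Mitochondrially encoded genes and the genes that define a split were left out, and genes with fewer than 30 summed counts were not tested. The quasi-likelihood test of edgeR 4.0.16 (R 4.3.3) was run on all remaining genes with TMM normalisation and the tumour as a block, at a Benjamini-Hochberg adjusted p under 0.05. It was also run on simulated data, which varied less between samples than these data. That run therefore gives no error rate for the calls made here. The sets of a comparison share their tumours, which is where the pairing comes from. DESeq2 1.42.0, limma 3.58.1 and other filters, depths and barcode sets were alternatives. Genes named are the 3 most counted of each complex, every gene that passed, isoform pairs and Cox6c, and others named were chosen after their values were seen. Coding lengths are the longest in GENCODE for a gene. Intervals are exact at the 95% level and cover counting error only. The SE given with edgeR is not an output of its test. It is the absolute log2 fold change over the square root of the test's F statistic. A marker call of another cell type needed 3 counts of 2 genes of its list. Sums and intervals were made with scipy 1.17.1 and pandas 2.3.3, and figures with matplotlib 3.10.9, under Python 3.11.15. The values of 1 member are not reported here by name.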

Additional observations from a re-analysis of the deposited data

How the results depend on the processing

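Tumour 2 limited the depth, with 148 barcodes of at least 200 counts. The summed log2 ratio of deep over shallow barcodes, -0.61, lay between -0.71 and -0.43 under 11 alternatives. The 41 members called there became 22 with DESeq2, 6 with no replicate block for the pairing by tumour, 3 with deep barcodes of at least 500 counts, 11 with deep barcodes thinned, and 0 to 49 with a tumour left out. Over all genes the 985 calls became 271 with DESeq2, 67 without the replicate block, 531 without a filter, 15 to 1661 with a tumour left out, 68 from 500 counts, 451 against barcodes of 100 to under 200 counts, 1537 with each gene counted once per barcode and 198 with thinning.

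Between the Neurod1 sets 0 members were called, except 1 (Ndufb10) at 200 to under 500 counts. The 65 calls over all genes became 0 with DESeq2, limma-voom or no replicate block, 0 to 138 with a tumour left out, and 34 to 39 in 5 further settings. The summed log2 ratio of -0.0275 became 0.0164 with mitochondrial counts in the library size, -0.0877 without barcodes of other marker calls, -0.0759 without the deepest 5%, -0.0695 at 200 to under 500 counts, -0.13 from 100 counts and 0.0568 from 300 counts. Between the Mki67 or Top2a sets 0 members were called in any setting. The 164 calls over all genes became 33 with DESeq2, 10 with limma-voom, 61 without the replicate block, 10 to 90 with a tumour left out, and 64 and 63 at 200 to under 500 counts and without Neurod1. The summed log2 ratio of 0.03 became -0.16 from 100 counts. The causes of these changes were not tested.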
